A study of Mus musculus with 73 samples.

Results

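Cytosolic ribosomes translate every nuclear-encoded protein of a cell. Each ribosome joins a small subunit, which reads the messenger RNA, to a large subunit, which forms the peptide bond, and each ribosomal protein (RP) is needed in a fixed number per ribosome. RP messenger RNAs are among the most abundant and steady transcripts of most cells, and many begin with a C followed by a run of pyrimidines, the 5′ terminal oligopyrimidine tract, through which mTOR signalling and LARP1 control their translation. The genes described here are the rows of the count table whose symbol starts with Rpl or Rps and a number, together with Rplp0, Rplp1, Rplp2 and Rpsa, at a mean of at least 10 CPM over all cells, where CPM is the count of a gene scaled by the total of its library. Symbols of pseudogenes with the ending -ps, the Rps6k kinases and Rps19bp1 were left out. Of 55291 gene rows, 93 matched the symbols and 78 passed the level, 45 of the large and 33 of the small subunit, on 19 chromosomes. The level chose the members, so their levels are a description and not a finding. The lowest members inside the limit were Rps27rt with a mean of 24.6 CPM and Rpl22 with 49.02 CPM, and the highest rows outside it were Rpl23a with 8.82 CPM and Rpl36al with 5.41 CPM.

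The cells were 73 inner hair cells (IHCs), picked singly by hand from mouse cochlea at postnatal day 14 and labelled Casz1-/-. The mice carried Atoh1 Cre, Casz1 flox/flox, the Cre-dependent 3xGFP reporter Ai47, a Flp-dependent tdTomato reporter at Rosa26 and Fgf8-Flpo, and cells with both colours were taken. Atoh1 drives Cre in hair cell precursors of both kinds, and Fgf8 drives Flpo in IHCs. Casz1 is a zinc-finger transcription factor, and the study set these cells beside wild-type IHCs, which are not analysed here. No label ties a cell to an animal, so all cells were treated as 1 sample, without a test and without a p-value. Relations over cells are rank correlations (Spearman's rho) over 73 libraries, each scaled by its own total, and they describe these libraries only. Slc26a5 encodes prestin, on which the length changes of outer hair cells (OHCs) depend. It varied widely among the cells, from 0 in 4 libraries to 1229 CPM in library 64 (median 73.1 CPM), and serves as the axis below.

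The libraries held 11027945 to 37183702 counts (median 17333640), so 10 CPM, the level called detected, is 110 counts in the shallowest and 372 in the deepest. Smart-Seq HT reads full-length cDNA without molecular identifiers, so counts include PCR copies, and the exact intervals given for shares of cells treat the cells as independent draws and leave out any spread between animals. All 16 general hair cell markers were detected in at least 10 cells, as were 11 of 12 IHC markers and 11 of 14 OHC markers. The summed level of markers of other cells was lower, with 1 library standing apart in each of a pair of lists. The 14 immune markers summed to a median of 0.222 CPM with 6703 CPM in library 5, and the 14 supporting cell markers to a median of 10.2 CPM with 1208 CPM in library 67. The ribosomal protein share of counts was 2.00% in library 5 and 2.32% in library 67. A rare marker of another cell type, one detected in under 10 cells, reached 50 CPM in 27 cells, so the main values are also given without these cells and without libraries 5 and 67.

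Many but not all of the members with a known promoter had a run of pyrimidines near the annotated start. The search did not require the run to open the transcript, so a match is not a call of the tract itself. In Rpl13 the run begins 16 bases before the annotated start. RefSeq promoters (GRCm38.p6) were matched for 58 of 78 members. Within 20 bases of the annotated start, on the transcribed strand, a run of at least 7 pyrimidines that opens with C was found in 33 of 58 members (56.9%) and in 6070 of 26967 other genes (22.5%). The other genes are all those with a promoter entry, whatever their level in these cells, so they are not matched to the members. The median longest run was 7.5 bases in the members and 5 bases in the other genes. The sequences below are members at both ends of the order by correlation with Slc26a5. They reach from 60 bases before the start to 20 bases from the start on. Capitals mark the longest run that opens with C and begins within 20 bases of the start.
Rpl13, chr8:123102290-123102369, plus strand: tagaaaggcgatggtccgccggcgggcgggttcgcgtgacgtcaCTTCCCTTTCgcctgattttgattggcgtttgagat
Rps9, chr7:3703981-3704060, plus strand: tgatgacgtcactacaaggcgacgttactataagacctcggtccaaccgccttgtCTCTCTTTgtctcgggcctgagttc
Rps18, chr17:33955646-33955725, minus strand: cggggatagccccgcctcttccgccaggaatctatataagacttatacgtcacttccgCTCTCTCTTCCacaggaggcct
Rpl18, chr7:45718011-45718090, plus strand: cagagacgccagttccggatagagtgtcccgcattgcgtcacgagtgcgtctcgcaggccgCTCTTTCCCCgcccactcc
Rpl35a, chr16:33056422-33056501, plus strand: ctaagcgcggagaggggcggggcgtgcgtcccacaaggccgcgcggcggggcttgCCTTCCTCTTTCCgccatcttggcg
Rpl10, chrX:74270756-74270835, plus strand: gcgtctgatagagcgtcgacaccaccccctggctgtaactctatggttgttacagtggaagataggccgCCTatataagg

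Among these, Rpl13, Rps9 and Rps18 are 3 of the members most positively related to Slc26a5, and Rpl18, Rpl35a and Rpl10 are the 3 lowest. The marked runs have 8 to 11 bases in the first 3, and 10, 13 and 3 bases in Rpl18, Rpl35a and Rpl10. The length of the run did not order the members: across the 58 with a promoter, its rank correlation with their correlation with Slc26a5 was -0.11. Of the other motifs searched on both strands of the 300 bases of each promoter, CCGGAAGT was present in 12 of 58 members (20.7%) against 4.27% of other genes. AAGATGGCG was present in 3 members (5.17%) against 1.63%, and GGGCGG in 36 members (62.1%) against 38.2%. TATAAA was present in 7 members (12.1%) against 15.7%, and CCAAT in 17 members (29.3%) against 41.1%. These are matches of letters only, and the other genes are again not matched in level.

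As a group, RP transcripts took a small and variable share of each cell's counts, and that share was larger in cells with more Slc26a5. The 78 members together held between 1.27% of counts in library 14 and 2.94% in library 35 (median 1.87%, quartiles 1.66% and 2.19%), a 2.32-fold range. The order was loose: library 35 had 1132 CPM of Slc26a5, library 44, with a share of 2.50%, had 19.6 CPM, and library 64, highest in Slc26a5, had a share of 2.19%. The 4 libraries without Slc26a5 had shares of up to 2.09%. The rank correlation of the share with Slc26a5 was 0.67. It was 0.69 without libraries 5 and 67 (71 cells) and 0.69 in the 46 cells with no rare marker of another cell type at 50 CPM. The small subunit genes held a median of 0.712% of counts and the large subunit genes 1.15%, with correlations with Slc26a5 of 0.68 and 0.63. The count of small over large subunit genes had a median ratio of 0.603, from 0.432 to 0.754 (rho with Slc26a5, 0.32).

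Other properties of the libraries moved with the share as well. The mitochondrial share of counts (1.81% to 13.0%) correlated with it at -0.39. The RP share correlated at -0.49 with the number of genes with a count (6954 to 10688), 0.22 with total counts and 0.42 with the library number in the title. Slc26a5 itself correlated at -0.49, -0.30, 0.27 and 0.31 with the same 4 measures. After the ranks were corrected for each of these in turn, the correlation of the share with Slc26a5 was 0.60 for the mitochondrial share, 0.63 for genes with a count, 0.65 for total counts and 0.63 for the library number. The mean log2 level of immediate early genes correlated at -0.26 with the share and -0.36 with Slc26a5, and the corrected value was 0.64. The summed level of the IHC markers correlated at -0.63 with the RP share, that of the OHC markers, which include Slc26a5, at 0.60, and that of the general hair cell markers at 0.16. Of the other cell types, glial markers had the highest correlation with the share (0.43), with 2 of 9 detected in at least 10 cells and a summed level of 0 to 498 CPM (median 45.5 CPM). The part of these measures in the relation was not tested beyond the corrections given.

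**Figure D1:**
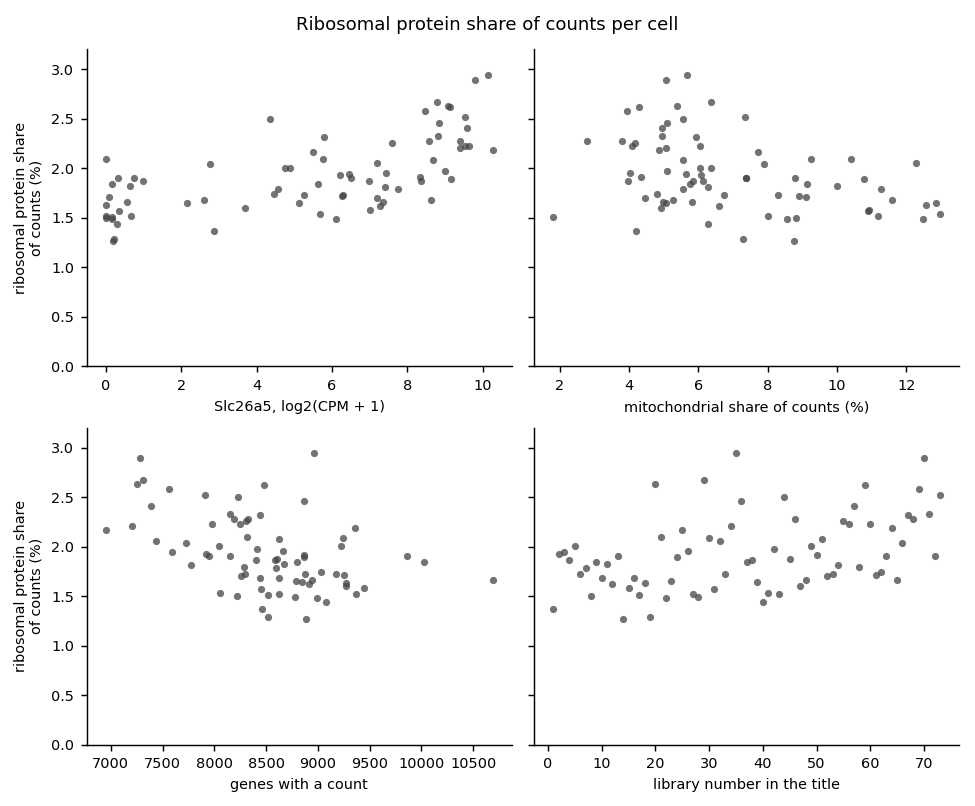
The share of counts from 78 ribosomal protein genes (y axis, percent) in each of 73 cells, against the level of Slc26a5, the mitochondrial share of counts, the number of genes with a count and the library number in the title. Each point is 1 cell; the share runs from 1.27% to 2.94% and has a rank correlation of 0.67 with Slc26a5 and -0.39 with the mitochondrial share.

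Nearly every member was present in nearly every cell. Of the 78 members, 55 were at 10 CPM or more in all 73 cells, a level and breadth that 7.25% of the 8619 genes past the same mean also had. Between 73 and 78 members were detected per cell (median 77), and 68 members had a count in every cell. The coefficient of variation over cells, the SD over the mean, had a median of 0.470 over members (0.234 for Rpl41 to 1.15 for Rps4l), beside 1.27 over all genes. It was 1.05 over other genes in the members' range of mean level and 0.383 over nuclear-encoded respiratory chain genes. At least 70 cells had 71 of the members at the detected level, and Rpl22, Rpl7l1, Rps4l and Rps27rt, described with their paralogs, were among those in fewer cells.

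The level per length of transcript varied by far more among members than the share varied among cells. Mean levels per kb of exon ran from 37.5 to 2325 CPM per kb. The lowest value is a mean of 139 CPM over a transcript of 3706 bases, of which 357 are coding. The range therefore depends on the transcript taken for each gene. Rpl41, on chromosome 10, encodes the smallest ribosomal protein and had 344 CPM in its lowest cell, a median of 1011 CPM and 1661 CPM in its highest. At a mean of 1016 CPM (2325 CPM per kb) it was 5.26% of all RP counts. It was followed per length by Rps29, a zinc-binding protein of the small subunit, at 1535 CPM per kb (262 to 1211 CPM, median 589 CPM). Rplp1, an acidic protein of the stalk that recruits elongation factors, had 1064 CPM per kb (156 to 1344 CPM, median 461 CPM).

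The 10 members with the highest mean CPM held 30.1% of RP counts. Beside Rpl41, Rps29 and Rplp1, they included Rpl4 (mean 608 CPM), Rpl3 (560 CPM), Rps2 (534 CPM), Rpl13 (501 CPM), Rps14 (487 CPM) and Rpl27 (466 CPM). Rpl3 and Rpl4 are core proteins of the large subunit, Rpl3 next to the peptidyl transferase centre and Rpl4 lining the exit tunnel. Rps2 and Rps14 are core proteins of the small subunit. At the low end, the means were 24.6 CPM for Rps27rt, 49.02 CPM for Rpl22, 49.9 CPM for Rpl7l1, 52.6 CPM for Rps12, 68.3 CPM for Rpl36a and 69.3 CPM for Rps4l. Rpl22l1 (72.4 CPM), Rps21 (78.9 CPM), Rpl30 (80.2 CPM) and Rpl29 (86.3 CPM) completed the 10 lowest. Of these 10, Rpl22l1, Rps21 and Rpl30 were detected in all 73 cells, while Rps12 was detected in 66 cells and was at 0 in 3.

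**Figure D2:**
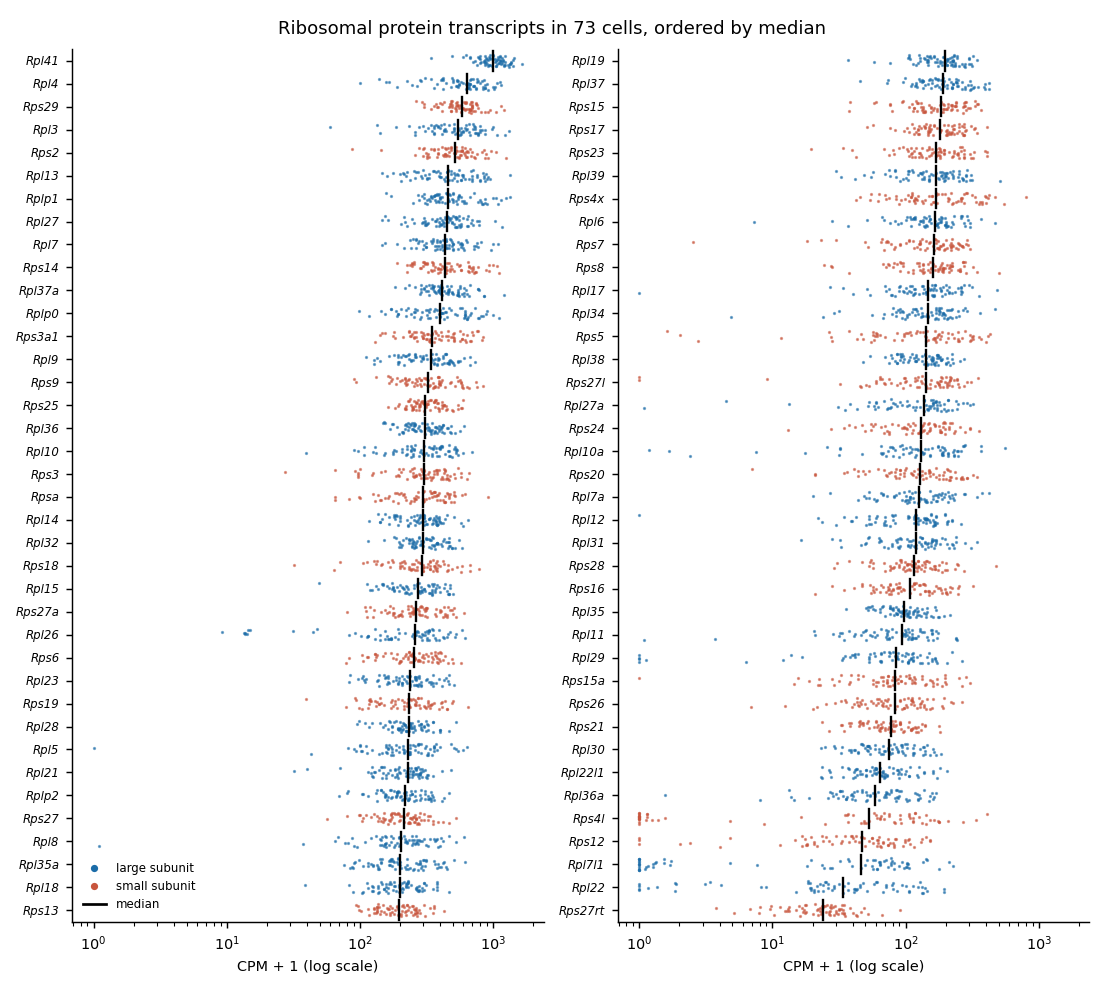
Level of each of 76 ribosomal protein genes (rows, in order of median) in 73 cells, as CPM + 1 on a log axis; each point is 1 cell, blue for large and red for small subunit genes, and the black bar is the median. Rpl41 leads with a median of 1011 CPM, and points at the left edge of the right panel are cells at 0, as for Rps4l and Rpl7l1.

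Members known for roles of their own were read at ordinary levels. Rplp0, which anchors the stalk, ranged from 97.1 to 1107 CPM (median 401 CPM) and Rplp2, the partner of Rplp1, from 68.4 to 471 CPM (median 217 CPM). Rpsa, also known as the laminin receptor precursor, ranged from 63.8 to 915 CPM (median 299 CPM). Rps6, the substrate of the S6 kinases, ranged from 77.4 to 576 CPM (median 255 CPM), and Rps27a, which is made as a fusion with ubiquitin, from 79.3 to 608 CPM (median 265 CPM). Rpl5 and Rpl11 bind the 5S ribosomal RNA and can hold MDM2, the ubiquitin ligase of p53. Rpl5 had 0 CPM in 1 cell and up to 642 CPM (median 231 CPM), and Rpl11 had 0.0863 to 242 CPM (median 93.8 CPM). Rpl38, known in mouse for the translation of Hox messenger RNAs, had 46.99 to 272 CPM (median 142 CPM). All 8 had a positive correlation with Slc26a5, from 0.46 for Rplp0 and 0.27 for Rplp2 down to 0.054 for Rpl11, with Rps6 at 0.067 and Rpl5 at 0.069.

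Single members were mostly, but weakly, higher in cells with more Slc26a5. Their rank correlations with Slc26a5 had a median of 0.26 (-0.12 to 0.64), beside a median of -0.030 over all 8618 genes tested. Of 78 members, 73 had a correlation above 0, against 43.3% of all genes, and 5 had one below 0, against 56.7%. At 0.3 or higher were 34 members, against 6.17% of all genes, and at 0.5 or higher 8 members, against 1.35%. None of the 78 was at -0.3 or lower, where 6.8% of all genes lay, or at -0.5 or lower, where 0.87% lay. Without libraries 5 and 67 the median was 0.27, and in the 46 cells without a rare marker it was also 0.27. The summed members, at 0.67, were related to Slc26a5 more closely than the highest single member, at 0.64.

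The count of members at 0.5 or higher depended on the scaling and on the corrections. It was 13 under scran size factors, 5 after correction for the mitochondrial share or the library number, and 4 by Pearson's correlation. The number below 0 ranged from 1 under scran size factors to 10 after correction for genes with a count. Across the 78 members, those with a more negative correlation with the mitochondrial share had a more positive one with Slc26a5 (rho across genes, -0.66), as did those with a higher mean level (0.40). Genes are not independent replicates, and these values describe the members only.

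**Figure D3:**
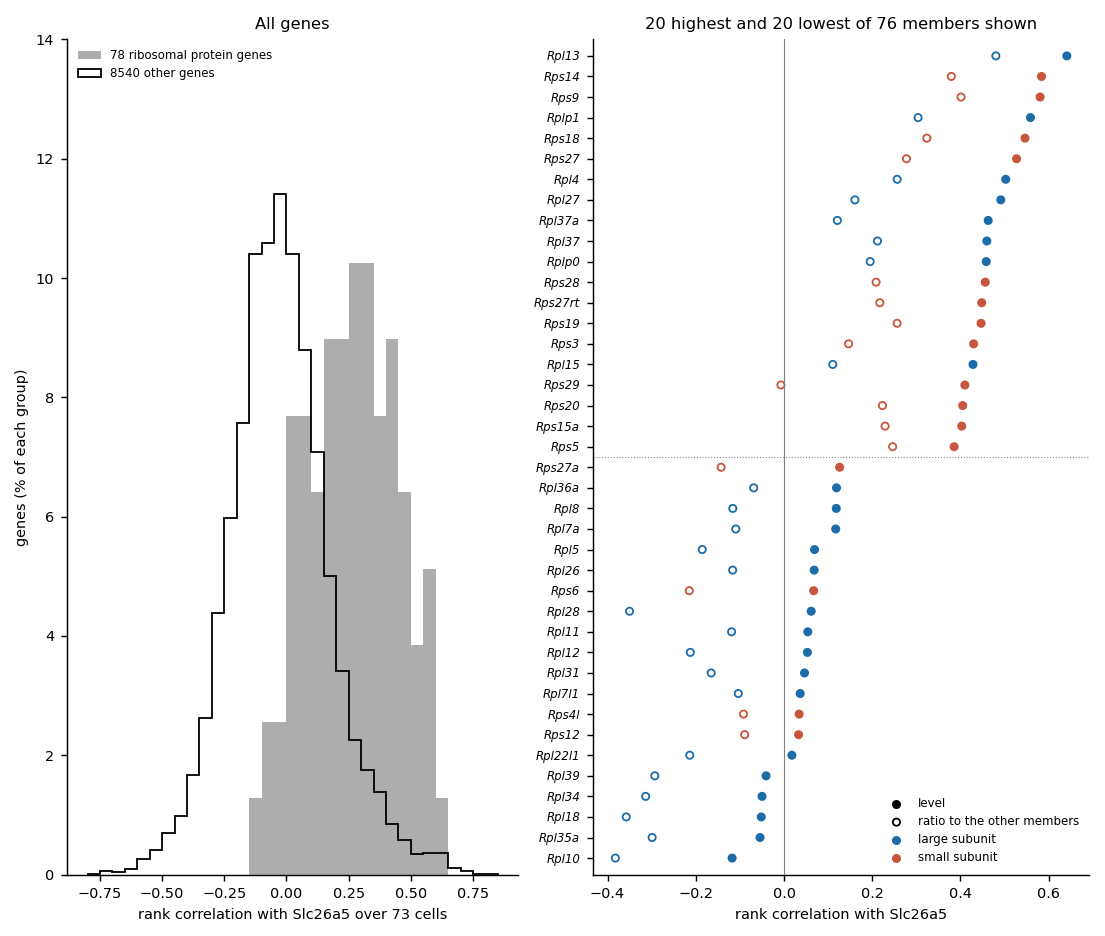
Left, the distribution of rank correlations with Slc26a5 over 73 cells for 78 ribosomal protein genes (grey, as a percent of the members) and for 8540 other genes (black line). Right, the 20 highest and 20 lowest of 76 members shown, with filled points for the level and open points for the ratio to the sum of the other members; Rpl13 is highest at 0.64 and Rpl10 lowest at -0.12.

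Both subunits took part. All 33 small subunit genes had a correlation above 0 with Slc26a5 (median 0.33, 20 at 0.3 or higher), as did 40 of 45 large subunit genes (median 0.23, 14 at 0.3 or higher). The 5 members below 0 were all large subunit genes. Members that host a small nucleolar RNA in the annotation had a median of 0.27 (28 genes), and the other 50 had a median of 0.26. The 4 X-linked members, Rpl10, Rpl39, Rps4x and Rpl36a, had a median of 0.039, with Rps4x at 0.31, Rpl36a at 0.12, Rpl39 at -0.041 and Rpl10 at -0.12. The 74 autosomal members had a median of 0.27.

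Among the highest correlations with Slc26a5 were those of Rpl13 (0.64), Rps14 (0.58), Rps9 (0.58), Rplp1 (0.56), Rps18 (0.55), Rps27 (0.53) and Rpl4 (0.50), with Rpl27 (0.49) and Rpl37a (0.46) next. Rpl13 stands at rank 21 of all 8618 genes. It is a large subunit gene (chr8:123102350-123105244, plus strand, mm10), and its level ran from 146 to 1339 CPM (median 461 CPM). Library 64, highest in Slc26a5, had 493 CPM of Rpl13, against 357, 146, 514 and 328 CPM in libraries 8, 18, 21 and 27, which had no Slc26a5. The ends of the axis thus overlap in Rpl13, and the relation is a tendency over all cells.

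Rps9, which lies at the messenger RNA entry of the small subunit (chr7:3703993-3706897, plus strand, mm10), ran from 89.5 to 837 CPM (median 327 CPM), and Rps14 from 190 to 1108 CPM (median 436 CPM). Library 64 had 583 CPM of Rps9, against 343, 314, 289 and 223 CPM in libraries 8, 18, 21 and 27. For Rps9 the cell with the most Slc26a5 therefore lay above all 4 cells with none. Rps18, which lies in the head of the small subunit, ran from 30.9 to 791 CPM (median 292 CPM). Rpl4 ran from 100 to 1161 CPM (median 644 CPM). Over the alternatives in scaling, cells and corrections, Rpl13 stayed between 0.53 and 0.67, Rps14 between 0.52 and 0.64, and Rps9 between 0.49 and 0.61.

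A member was said to depart from the group where its own correlation with Slc26a5 was below 0, or where its ratio to the summed counts of the other members had a correlation of at least 0.3 in size with Slc26a5. By this rule 13 members departed. The ratio was low in cells with much Slc26a5 for 6 members at -0.3 or lower, a share to be read against 34.4% of all genes, since the sum in the denominator is itself higher in those cells. It was high for 5 members, against 1.6% of all genes. The 5 on the high side were Rpl13 (0.48), Rps9 (0.40), Rps14 (0.38), Rps18 (0.32) and Rplp1 (0.30).

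Rpl10 departed most among those with a correlation below 0. It encodes a protein that joins the large subunit late in its maturation, close to the peptidyl transferase centre, and is X-linked (chrX:74270812-74273135, plus strand, mm10). Its level ran from 38.6 to 703 CPM (median 305 CPM), and it was detected in all 73 cells. Library 64 had 224 CPM of Rpl10, against 359, 343, 254 and 225 CPM in libraries 8, 18, 21 and 27, so the cell with the most Slc26a5 was just below all 4 cells with none. Its correlation with Slc26a5 was -0.12, that of its ratio was -0.38, and that with the summed other members was 0.084. The sign held under all 14 alternatives, from -0.16 to -0.020, although the size stayed small. Those that add a larger value before the log or change the mean level for members cannot alter a gene's own rank correlation.

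Rpl18, Rpl34, Rpl35a and Rpl39 also had correlations just below 0, of -0.052, -0.050, -0.054 and -0.041. Their levels ran from 37.8 to 471 CPM (median 199 CPM), from 3.90 to 466 CPM (median 147 CPM), from 75.5 to 613 CPM (median 200 CPM) and from 29.1 to 508 CPM (median 169 CPM) in that order. Rpl39 lies at the exit tunnel of the large subunit, and Rpl35a is one of the genes mutated in Diamond-Blackfan anaemia in humans. The ratios of Rpl18 and Rpl34 correlated at -0.36 and -0.31 with Slc26a5, and those of Rpl35a and Rpl39 at -0.30 and -0.29. These correlations were not fixed in sign: those of Rpl18, Rpl34, Rpl35a and Rpl39 reached 0.13, 0.14, 0.070 and 0.037 under some alternatives. Rpl35a was nearly unrelated to the summed other members (-0.064).

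Rpl41 and Rpl28 departed through their ratio alone. The ratio of Rpl41 had the most negative correlation with Slc26a5 of any member, at -0.46, while its own level correlated at 0.19. Library 64 had 932 CPM of Rpl41, against 797, 895, 1435 and 1004 CPM in libraries 8, 18, 21 and 27, within the range of the cells without Slc26a5. Rpl41 also varied least over cells (coefficient of variation 0.234) and correlated at 0.55 with the sum of the others. Rpl28 (93.7 to 527 CPM, median 233 CPM) had a ratio correlation of -0.35 with an own value of 0.062. Over 12 alternatives, Rpl10, Rpl41, Rpl13 and Rps14 met the rule in all 12, Rplp1 in 6, Rps18 in 9, Rpl28 in 10, and Rpl18, Rpl34, Rpl35a, Rpl39 and Rps9 in 11. The sign of the ratio was the same in all 12 for all 13 members.

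**Figure D4:**
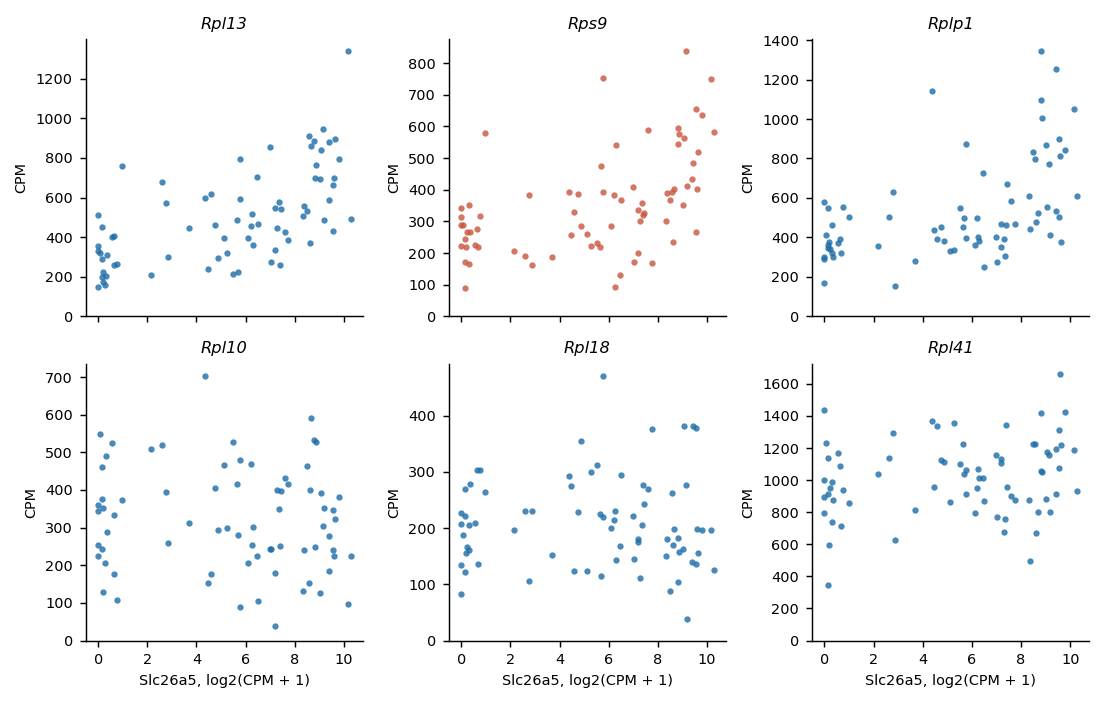
Levels in CPM (y axes, linear) of Rpl13, Rps9 and Rplp1 above and Rpl10, Rpl18 and Rpl41 below, against Slc26a5 as log2(CPM + 1), with 1 point per cell (73 cells). The rank correlations are 0.64, 0.58 and 0.56 in the upper row and -0.12, -0.052 and 0.19 in the lower; the level of Rpl41 is weakly positive, and its ratio to the other members is what correlates negatively.

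Among themselves, the members moved together weakly. Over the 3003 pairs the median rank correlation was 0.13 (-0.31 to 0.66), with 82.3% above 0, 14.7% at 0.3 or higher and 40 pairs at 0.5 or higher. Pairs of a member and another gene had a median of -0.016 with 1.45% at 0.3 or higher, and all 37139271 pairs of genes had a median of 0.0044 with 0.999% at 0.3 or higher. The closest pairs were Rpl37a with Rps29 (0.66) and Rps27 with Rps27rt (0.65). The coding sequences of Rps27 and Rps27rt are identical, so reads from that part cannot be assigned to either gene. The lowest was Rpl39 with Rps6 (-0.31). A member's correlation with the sum of the other members had a median of 0.37, from -0.10 for Rpl7l1 to 0.80 for Rpl37a, with Rps14 at 0.71. Each pair shares its library, so depth and scaling enter every one of these values.

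Paralogs are taken here as genes related in sequence to an RP gene, and not all of them can take its place in the ribosome. Several were read beside their parent gene. Rps27, Rps27l and Rps27rt form the largest set. Rps27l is known as a target of p53, and Rps27rt is an intronless copy of Rps27 (chr9:114982366-114982739, minus strand, mm10). The coding sequences of Rps27 and Rps27rt, 252 bases each without the stop codon, are identical over all 252 bases, while Rps27l differs from them at 60 bases (76.2% identity). They are shown because reads of the first pair cannot be told apart in the coding part, and those of Rps27l can; capitals mark the bases of Rps27l that differ from Rps27, and the GENCODE vM21 transcripts gave the sequences.
Rps27, chromosome 3: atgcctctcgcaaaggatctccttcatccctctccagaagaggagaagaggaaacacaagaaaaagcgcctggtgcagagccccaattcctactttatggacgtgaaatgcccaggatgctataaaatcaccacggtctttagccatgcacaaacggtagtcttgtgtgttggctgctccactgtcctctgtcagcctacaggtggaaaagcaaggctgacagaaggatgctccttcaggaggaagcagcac
Rps27l, chromosome 9: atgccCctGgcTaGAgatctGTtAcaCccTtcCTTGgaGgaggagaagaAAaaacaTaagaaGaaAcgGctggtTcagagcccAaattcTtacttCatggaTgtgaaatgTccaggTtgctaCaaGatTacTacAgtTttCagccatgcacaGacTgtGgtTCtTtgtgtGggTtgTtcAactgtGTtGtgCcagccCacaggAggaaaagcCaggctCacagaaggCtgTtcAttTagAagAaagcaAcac

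Rps27 ran from 55.7 to 526 CPM (median 212 CPM), Rps27l from 0 to 351 CPM (median 140 CPM) and Rps27rt from 2.73 to 89.5 CPM (median 23.1 CPM). Per length the means were 639, 293 and 65.9 CPM per kb. Rps27rt took a median of 10.0% of the counts of the pair with Rps27 (2.96% to 18.7%) and followed it over cells (rho 0.65). With 91.1% of its 50-base windows also found in transcripts of other genes, its row cannot be separated from Rps27. Rps27l was detected in 70 of 73 cells, was at 0 in 2, and was nearly unrelated to Rps27 (rho 0.13). The correlations with Slc26a5 were 0.53 for Rps27, 0.45 for Rps27rt and 0.26 for Rps27l.

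Rpl22 and Rpl22l1 were the pair in which the paralog took more of the counts. Rpl22 encodes an RNA-binding protein of the large subunit that is dispensable in mouse, and it is known there to repress Rpl22l1. The first 180 bases of both coding sequences show how far they differ (68.2% identity over the aligned whole), with capitals for the bases of Rpl22l1 that the alignment does not match to the same base in Rpl22.
Rpl22, chromosome 4: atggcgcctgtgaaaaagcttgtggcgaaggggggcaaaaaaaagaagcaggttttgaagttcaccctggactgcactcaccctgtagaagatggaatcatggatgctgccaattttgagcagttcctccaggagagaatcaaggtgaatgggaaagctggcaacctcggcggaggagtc
Rpl22l1, chromosome 3: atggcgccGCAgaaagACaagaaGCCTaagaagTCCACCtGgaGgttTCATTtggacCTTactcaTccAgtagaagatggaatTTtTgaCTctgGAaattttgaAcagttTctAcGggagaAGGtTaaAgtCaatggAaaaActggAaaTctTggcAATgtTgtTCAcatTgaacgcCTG

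Rpl22l1 ran from 22.2 to 203 CPM (median 62.9 CPM) and was detected in all 73 cells. Rpl22 ran from 0 to 195 CPM (median 32.8 CPM) and was detected in 59 cells (80.8%, exact 95% interval 69.9% to 89.1%), with 4 cells at 0. Rpl22l1 took the larger share of the pair's counts in 55 of 73 cells, with a median of 66.7%, and per length the means were 131 CPM per kb for Rpl22l1 and 103 CPM per kb for Rpl22. Over cells the levels of the pair had a rank correlation of -0.27, among the lowest of all pairs of members. With Slc26a5 the correlations were 0.018 for Rpl22l1 and 0.24 for Rpl22.

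Rpl7l1 and Rps4l were on in some cells and at or near 0 in others. Rpl7l1, a relative of Rpl7 at 54.03% identity in the coding sequence, ran from 0 to 226 CPM (median 45.4 CPM) and was detected in 47 of 73 cells (64.4%, exact 95% interval 52.3% to 75.3%), with 13 cells at 0. Its parent Rpl7 was detected in all 73 cells, from 146 to 1086 CPM (median 440 CPM). Rps4l, on chromosome 6, ran from 0 to 407 CPM (median 52.1 CPM) and was detected in 48 cells (65.8%, exact 95% interval 53.7% to 76.5%), with 16 cells at 0. GENCODE vM21 annotates it as a transcribed processed pseudogene, and its X-linked parent Rps4x ran from 41.5 to 806 CPM (median 167 CPM). Rps4l took more of the counts than Rps4x in 12 cells. The paralogs were not tied to their parents (rho -0.085 for the Rpl7 pair and -0.19 for the Rps4 pair) or to Slc26a5 (0.037 for Rpl7l1 and 0.034 for Rps4l).

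The remaining paralogs were scarce or unread. Rpl36al averaged 5.41 CPM and was detected in 15 cells, beside 68.3 CPM and 71 cells for Rpl36a. Rpl3l, the striated muscle form of Rpl3, had a count in 2 cells, with 81.4 CPM in the higher. Rpl10l and Rpl39l, both known from testis, had 0 counts in all 73 cells. By the rule of 3, an approximate bound of 3 over 73, up to 4.11% of cells could have a count. This takes cells as independent and is not an exact interval. The stalk proteins Rplp1 and Rplp2 are found in equal number in the ribosome, and Rplp2 took a median of 31.6% of their counts (10.96% to 56.2%). The share of Rplp2 in that pair had a rank correlation of -0.27 with Slc26a5.

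**Figure D5:**
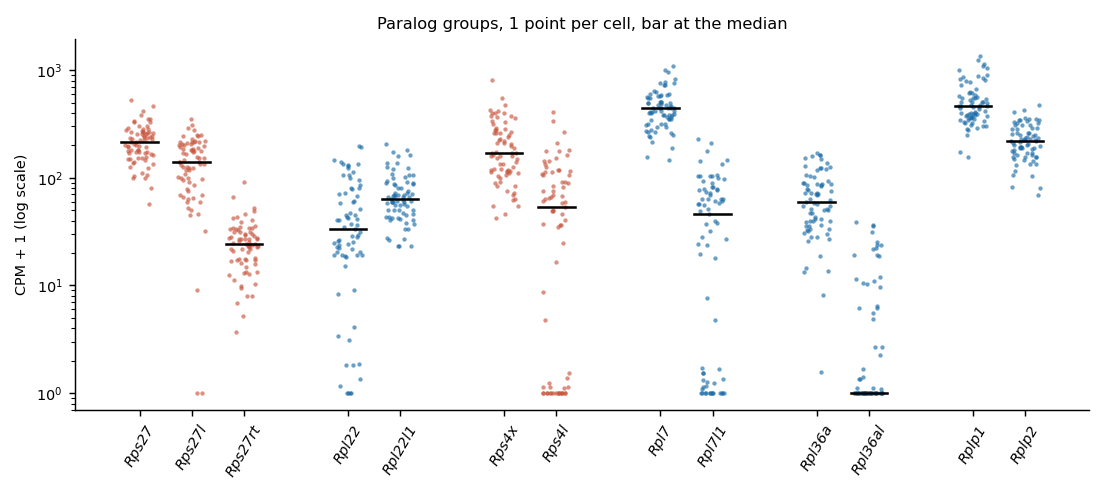
Levels of paralog groups in 73 cells, as CPM + 1 on a log axis, with 1 point per cell and a bar at the median (red, small subunit; blue, large subunit). Rpl22l1 lies above Rpl22 in its median (62.9 and 32.8 CPM), and Rps4l, Rpl7l1 and Rpl36al have many cells at 0.

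Not every RP gene of the ribosome passed the limit, and several of those below it overlap another gene in the annotation. Of the 15 rows that matched the symbols below 10 CPM, 8 are protein-coding. Rps10 averaged 0.625 CPM, Rpl24 1.47 CPM, Rpl13a 4.14 CPM and Rpl23a 8.82 CPM, each a protein of the ribosome. In GENCODE vM21, 91.6% of the exon bases of Rps10 also belong to another annotated gene on the same strand, as do 71.5% for Rpl24, 59.3% for Rpl13a and 63.1% for Rpl36al. The rows of the genes that overlap Rpl24, Rpl13a and Rpl36al have 0 counts themselves. For Rpl23a, 55.4% overlap Tlcd1 on the other strand. Of the 78 members, 1 had any exon overlap on the same strand, Rpl19 with 10.7%. On the other strand 8 members had some overlap. Among them were Rpl35 with 68.3% (mean 103 CPM), Rpl5 with 46.6% (245 CPM) and Rpl30 with 34.7% (80.2 CPM). By mean level they ranked 65, 28 and 70 of the 78 members, in that order. How reads on more than 1 gene were counted is not stated. Its part in the values of the rows below 10 CPM was not tested, and those values are not read as low expression.

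Near-identical pseudogenes limit the members too. A median of 57.8% of a member's 50-base windows also occurred in transcripts of other genes (0 to 98.6%), and 49 of 78 members had over 50% of theirs in common with others. This share was unrelated to the mean level (rho across members 0.010) and to the correlation with Slc26a5 (-0.042). The 317 rows of pseudogenes with the ending -ps held 0.0223% of counts in the median cell and summed to 1.26% of the members' level. Their share had a rank correlation of -0.011 with Slc26a5. Strand was not stated to be used in counting, so overlapping and antisense genes cannot be told apart.

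The RP genes stood beside other translation genes as follows. The 76 mitochondrial RP genes, which build the separate ribosome of mitochondria, had a median correlation with Slc26a5 of -0.0016, 38 of them above 0. Proteasome subunits had a median of 0.087 (34 genes) and nuclear-encoded respiratory chain subunits 0.062 (92 genes). Other genes of the same range of mean level had a median of -0.025 (5886 genes), and other genes with exons no longer than the median member, 1775 bases, had 0.0081 (829 genes). The medians of these groups, all below that of the RP genes at 0.26, come from the same cells and the same scaling. As summed shares of counts, the measure at 0.67 for the RP genes, some other families also rose with Slc26a5. Elongation factors, listed below, correlated at 0.62 and other genes known for a 5′ terminal oligopyrimidine tract at 0.55. Proteasome subunits and initiation factors were both at 0.35. Respiratory chain subunits were at 0.23, ribosome assembly genes at 0.094 and mitochondrial RP genes at 0.081.

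Fau and Rack1 are ribosomal proteins under other names. Fau, a fusion of a ubiquitin-like protein and a small subunit protein, averaged 123 CPM (rho with Slc26a5 0.36). Rack1, a scaffold on the head of the small subunit, averaged 255.6 CPM (0.17). Among the 8 elongation factor genes at 10 CPM or more, of 10 listed, the median was 0.12. Eef1a1, which brings aminoacyl-tRNA to the ribosome, was at 0.63 (mean 1122 CPM) and Eef2, the translocase, at 0.42 (512 CPM), while Eef1g was at -0.23 (224 CPM) and Eef2k, the kinase that inhibits Eef2, at -0.24 (23.7 CPM). Of 20 other genes known for a 5′ terminal oligopyrimidine tract, 15 were above 0 (median 0.13), some of them in the lists of factors as well.

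For the 31 initiation factor genes the median was 0.053, with Eif3h (0.40) and Eif5 (0.33) highest and Eif4g1 (-0.15) and Eif3i (-0.18) lowest. Ribosome assembly genes did not follow the RP genes: 32 of 37 listed were at 10 CPM or more, with a median of -0.0046. Among them Polr1c (0.32), a subunit of RNA polymerases I and III, and Nop58 (0.28), of the box C/D particles, were highest, and Polr1a (-0.21) and Wdr12 (-0.31) lowest. A list drawn up for the regulation of RP synthesis had a median of -0.015 (21 of 25 listed). Not every gene on it is a known regulator of RP synthesis, Larp7 being an exception. Larp7 (0.30) and Rictor (0.29) were highest, and Tsc2 (-0.28) and Eif4ebp2 (-0.29) lowest. Larp7 was detected in 26 cells and Eif4ebp2 in 21, beside 65 for Rictor and 58 for Tsc2. The 8 genes with RP-like symbols that are not ribosomal proteins, most of them Rps6k kinases, were all below 0, against 56.7% of all genes. Rps6ka2 was lowest at -0.74 and Rps6kb1 highest at -0.0065.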

How the data were processed

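The deposited table holds raw counts, as whole numbers, of gene rows in 73 cells. Per the submitters' processing notes, HISAT2 2.2.1, StringTie 2.2.1 and featureCounts 2.0.1 were used with the build mm10; their settings and the annotation release are not given in the sources used here. Per the labels' protocols, cDNA came from the Smart-Seq HT kit.

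Counts were scaled to CPM by the library total after a reporter row (WPRE, 0.0161% of counts) was set aside. Rank correlations used log2(CPM + 1) over 8619 genes whose mean reached 10 CPM, and a count model was not used since there is 1 group. Detection shares carry exact Clopper-Pearson 95% intervals. Annotation, exon lengths and coding sequences come from GENCODE vM21 (1 transcript per gene), whose symbols match 53292 rows; promoters come from RefSeq GRCm38.p6. No library repeated another over 2628 pairs.

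The members, gene lists, thresholds and alternatives were chosen with earlier results of these data known. The text names the 10 highest and 10 lowest members by level and by correlation with Slc26a5, members that depart, paralogs, members with a role of their own, and the 2 highest and 2 lowest of other lists; Rpl19, Rpl24, Rpl35, Rpl13a and Rps10 were added after their values were seen. Some genes are not reported here by name, though counts and medians over the members include them. Simulated counts were used to check the correlations. Biopython 1.88, matplotlib 3.10.9, scipy 1.17.1, pandas 2.3.3 and numpy 2.4.6 ran under Python 3.11.15, and scran 1.30.0 under R 4.3.3.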

Additional observations from a re-analysis of the deposited data

How the results depend on the processing

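With 1 group and no animals named, no test and no replicate could be left out. The correlation of the RP share with Slc26a5 ran from 0.60 to 0.69 over 11 alternatives, the median member correlation from 0.23 to 0.33 over 14, and the median between members from 0.11 to 0.22 over 14. Members that depart numbered 12 to 15 over 12 alternatives. The number of members below 0, 5 as reported, was 9 with members of a mean of 1 CPM or more, 8 under DESeq2 median-of-ratios size factors and 1 under scran size factors. It was 8 after correction of ranks for the mitochondrial share, for total counts or for immediate early genes, 10 after correction for genes with a count, and 8 by Pearson's correlation. The number at 0.5 or higher, 8 as reported, was 13 under scran size factors, 5 after correction for the mitochondrial share, 5 for the library number, and 4 by Pearson's correlation. The number detected in all cells, 55 at 10 CPM, was 30 at 50 CPM. The cause of these changes was not tested. Of the values for single named members, 394 alternatives moved the correlation by no more than 0.1 and 23 moved it further. Some of the 394 could not move it, namely a larger value added before the log and other limits on the mean level. At the depth of these libraries, 10 CPM is at least 110 counts.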

Other observations

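The make-up of the RP pool, as the level of each member relative to the others in a cell, had a first principal component with 14.3% of its variance. It was led by Rps4l and Rpl7l1 and had a rank correlation of 0.043 with Slc26a5, 0.28 with the mitochondrial share and -0.24 with the genes that had a count. The weights were -0.82 for Rps4l and -0.46 for Rpl7l1, which had 16 and 13 cells at 0, and at most 0.10 in size for other members. The component therefore describes mainly these genes and says little about the rest of the pool. Its sign was set to make the correlation with Slc26a5 positive.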
